A study of Homo sapiens with 4 samples.

Results

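The regions described here are 876 FOXK1 peaks that lie beside the annotated ends of at least 2 neighbouring protein-coding genes. They were chosen from the peak list of untreated cells by 3 conditions. The peak had a pileup height of 10 or more, it was overlapped by at least 1 bp by a peak of height 10 or more in the TGF-β1 list, and its midpoint lay within 1 kb of an end of 2 or more genes of the RefSeq table (GRCh38.p14, chromosomes 1 to 22 and X). Of 19885 control peaks that met the first 2 conditions on these chromosomes, 4.41% met the last one, 3771 lay at the end of 1 gene and 15238 at no gene end. Of the 876 peaks, 840 lay at 2 genes and 36 at 3 genes, and together they lay at 1720 genes. The highest overlapping TGF-β1 peak was taken for each. These were 867 distinct TGF-β1 peaks, since a wide TGF-β1 peak sometimes covered a pair of control peaks. Of the 876, 34 overlapped more than 1 TGF-β1 peak of height 10 or more.

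HK-2 cells, an immortalised line from human proximal tubules, were used for ChIP-seq of FOXK1. They were exposed for 24 h to TGF-β1, a profibrotic cytokine, at 10 ng/ml, or left untreated (control). The 4 libraries, 1 FOXK1 and 1 input per condition, came from formaldehyde-fixed chromatin cut with micrococcal nuclease and by sonication. There were no replicates and a single cell line, so no difference between conditions could be tested, and intervals below are exact binomial 95% intervals that cover counting error only.

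Many human genes are arranged head to head, with starts on opposite strands and close together, so that a single stretch of DNA serves as the promoter of both. Such bidirectional promoters are typically rich in CpG, often lack a TATA box, and are frequent among genes for DNA repair, chromatin and mitochondria. FOXK1 is a forkhead transcription factor known for repression of autophagy genes and activation of glycolysis genes downstream of mTOR, and forkhead proteins bind a core written TGTTTAC.

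The forkhead core stood near the gene start at several of the highest of these peaks, and the following 27-base windows of RefSeq promoters (GRCh38, which has the chromosome coordinates of hg38) show it in its surroundings. They are from genes of the 12 peaks highest in the TGF-β1 list and from HSP90AA1, the highest cytosolic chaperone gene among them. Each is written 5′ to 3′ on the strand that reads TGTTTAC, and capitals mark those letters.
AP4M1 (chr7:100100733-100100759, plus strand): ggaaggacacTGTTTACacgacactcc
HACL1 (chr3:15601646-15601672, minus strand): agaacgcgcgTGTTTACattctcacct
JUNB (chr19:12791310-12791336, plus strand): ccgtggccgcTGTTTACaaggacacgc
GRK4 (chr4:2963444-2963470, minus strand): gcgggcgcggTGTTTACttctcgcgag
WDR48 (chr3:39051909-39051935, plus strand): cacaacagccTGTTTACcttcagcccc
CNST (chr1:246566243-246566269, minus strand): caggctctagTGTTTACttccgcttga
HSP90AA1 (chr14:102139745-102139771, minus strand): ggggtgggctTGTTTACggcccgactg
The core lies upstream of the annotated start in each of these 7 genes, and its far edge is 12 bp from the start in HSP90AA1, 51 bp in AP4M1 and 203 bp in CNST. A match is a run of letters and not a shown binding site.

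The DNA between the starts is short at many of the pairs. The stretches printed next run on the plus strand from one start to the other, without the start bases, and were picked to show pairs with and without the forkhead core and with high and low G and C content. Capitals mark the forkhead core (TGTTTAC), the CCAAT box (CCAAT), the ETS core (CCGGAAG) and the E-box (CACGTG), each searched on both strands.
DNAJB9 and THAP5 (chr7:108569769-108569873): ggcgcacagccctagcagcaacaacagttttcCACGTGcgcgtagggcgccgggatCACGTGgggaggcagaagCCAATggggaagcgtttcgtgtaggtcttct
GRK4 and NOP14 (chr4:2963407-2963570): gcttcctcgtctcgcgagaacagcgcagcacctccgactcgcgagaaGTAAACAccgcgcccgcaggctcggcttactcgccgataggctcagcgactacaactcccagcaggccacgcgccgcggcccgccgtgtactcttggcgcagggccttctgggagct
WDR48 and SCN11A (chr3:39051945-39052015): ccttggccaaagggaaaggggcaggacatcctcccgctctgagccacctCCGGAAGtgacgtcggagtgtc
MCM2 and TPRA1 (chr3:127598232-127598410): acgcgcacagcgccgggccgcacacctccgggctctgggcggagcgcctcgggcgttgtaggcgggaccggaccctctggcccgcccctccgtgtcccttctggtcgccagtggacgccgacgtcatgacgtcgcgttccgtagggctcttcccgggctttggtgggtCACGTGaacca
H2AC8 and H2BC8 (chr6:26216689-26216920): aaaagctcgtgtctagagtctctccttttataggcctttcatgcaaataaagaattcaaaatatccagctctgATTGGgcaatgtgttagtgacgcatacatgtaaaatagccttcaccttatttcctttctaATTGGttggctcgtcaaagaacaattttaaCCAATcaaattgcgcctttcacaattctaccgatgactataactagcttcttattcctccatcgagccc
The DNAJB9 stretch of 105 bases holds E-boxes and 1 CCAAT box, and the GRK4 stretch of 164 bases holds the forkhead core, read from the minus strand as GTAAACA on the printed strand. In WDR48 the core lies past the SCN11A start and so outside the printed 71 bases. The stretch between the histone genes H2AC8 and H2BC8 is 38.4% G and C and has 3 CCAAT boxes, whereas that of MCM2, a subunit of the replicative helicase, is 71.5% G and C and has none. Of 213 distinct stretches between head-to-head starts up to 250 bp apart, 2 held the forkhead core (0.939%, interval 0.114 to 3.35%) and 67 held a CCAAT box (31.5%, interval 25.3 to 38.2%).

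The highest of the peaks lay at pairs of genes with differing functions. The pileup heights are the authors' values for each list, read depth per library is not given in the sources used here, and heights of the lists set side by side are therefore not a measure of change. AP4M1 and MCM7 had the highest peak in both lists, with a height of 215 in the TGF-β1 list (chr7:100100158-100100993) and 188 in the control list (chr7:100099840-100100997). AP4M1 encodes a subunit of the AP-4 adaptor complex and MCM7 part of the helicase that opens DNA for replication. Among the 19885 shared peaks it ranked 14 in the TGF-β1 list and 17 in the control list. The annotated starts of the pair overlap by 603 bp, and the peak covered the AP4M1 start but not the MCM7 start in either list.

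At EXOSC5, a subunit of the RNA exosome, and BCKDHA, a subunit of the branched-chain ketoacid dehydrogenase, the height was 124 in the TGF-β1 list and 101 in the control list (chr19:41396776-41397744). HACL1, a peroxisomal lyase of fatty acid alpha-oxidation, and BTD, the enzyme that recycles biotin, had 120 (TGF-β1) and 116 (control) at chr3:15601311-15602190. HOOK2, a microtubule-linked adaptor, and JUNB, a subunit of AP-1, had 120 in the TGF-β1 list and 98 in the control list. There the control peak was 5101 bp wide (chr19:12789764-12794864), the widest of the 876, and it overlapped 2 TGF-β1 peaks. The higher of these covered 1 of the 2 starts, and its midpoint was not within 1 kb of both genes. DNAJB9, an endoplasmic reticulum co-chaperone, and THAP5 had 117 in the TGF-β1 list and 144 in the control list, at chr7:108569384-108570847.

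The order of the other high pairs differed somewhat between the lists. NOP14, a factor of small ribosomal subunit assembly, and GRK4, a G protein-coupled receptor kinase, had 117 in the TGF-β1 list and 136 in the control list (chr4:2962039-2964358). WDR48, which activates the deubiquitinase USP1, and SCN11A, a sodium channel, had 112 (TGF-β1) and 137 (control) (chr3:39051663-39052859). TMEM59 and TCEANC2 had 106 (TGF-β1) and 135 (control) (chr1:54051903-54054085). LIN52, a subunit of the cell-cycle complex MuvB, and ALDH6A1, a mitochondrial dehydrogenase of valine breakdown, had 102 (TGF-β1) and 119 (control) (chr14:74084181-74085699).

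ANKRD37, known as a hypoxia-induced gene, and LRP2BP had 99 in the TGF-β1 list and 147 in the control list (chr4:185395452-185397172), the second highest in the control list. SLC49A4 and HSPBAP1 had 94 (TGF-β1) and 99 (control) (chr3:122793447-122795880). CNST and TFB2M, a mitochondrial transcription factor, had 91 (TGF-β1) and 112 (control) (chr1:246565608-246567579). TERF2IP, a telomere protein of shelterin, and KARS1, the lysyl-tRNA synthetase, had 90 (TGF-β1) and 102 (control) (chr16:75647388-75649446), and the TGF-β1 peak covered neither start. TSC1, which restrains mTORC1, and GFI1B, a transcriptional repressor, had 87 (TGF-β1) and 132 (control) (chr9:132944269-132945279), and the control peak covered neither start. All 14 of these pairs were head to head.

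**Figure D1:**
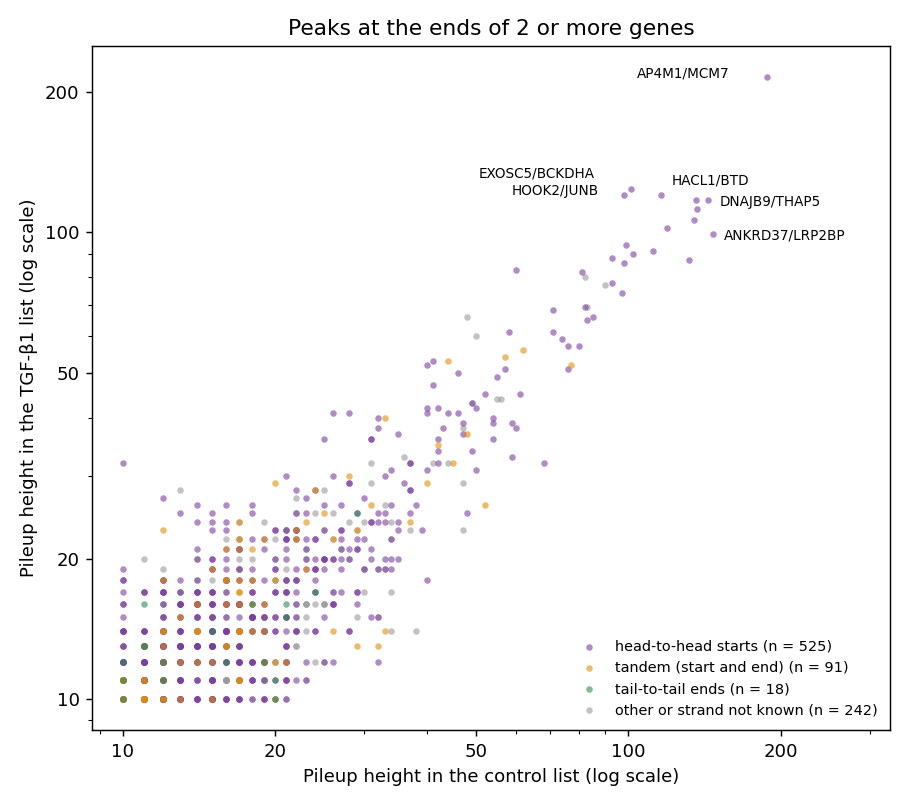
Pileup height in the TGF-β1 list (vertical, log scale) against that in the control list (horizontal, log scale) for each of the 876 peaks, coloured by the arrangement of the gene ends. Most points crowd between 10 and 20 on both axes, while AP4M1/MCM7 stands alone at 215 in the TGF-β1 list and 188 in the control list.

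Heights chose the peaks, so their levels are given as a description. The median height was 15 in the TGF-β1 list (quartiles 12 and 21) and 17 in the control list (quartiles 13 and 24), and shared peaks at 1 gene end had the same medians and quartiles. Peaks at no gene end had medians of 15 in the TGF-β1 list and 16 in the control list, and the highest shared peaks, up to 8140 in the TGF-β1 list and 4805 in the control list, were among them. A height of 20 or more in both lists was reached by 207 of the 876 peaks (23.6%), against 871 of 3771 at 1 gene end (23.1%). A height of 100 or more in both lists was reached by 8 of the 876 (0.913%) and by 31 at 1 gene end (0.822%). Across the 876 peaks the heights of the lists had a Spearman rho of 0.68, and at 1-gene peaks 0.66. Both lists share the antibody target, the cell line and the height minimum.

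Just inside the threshold, 124 peaks had 10 as the lower of their heights, and just outside it 139 further peaks at 2 or more genes had 9. Among the 11 with a height of 10 in both lists were the peaks at HOGA1 and ANKRD2, at RIN1 and BRMS1, and at MIS12 and DERL2.

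The peaks were wider than other shared peaks. The median width was 1070 bp in the TGF-β1 list (interval 1018 to 1122) and 1124.5 bp in the control list (interval 1068 to 1173). At 1 gene end it was 959 bp in the TGF-β1 list (interval 931 to 983) and 962 bp in the control list (interval 940 to 986), and at no gene end 760 bp in the TGF-β1 list and 724 bp in the control list. Width also differed with the arrangement of the genes. Peaks at head-to-head starts had median widths of 1227 bp in the TGF-β1 list and 1206 bp in the control list, and peaks at tail-to-tail ends had 672 bp in the TGF-β1 list and 707 bp in the control list. Median heights at head-to-head starts were 16 in the TGF-β1 list and 17 in the control list, and at tail-to-tail ends 12.5 in the TGF-β1 list and 15.5 in the control list.

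Of all control peaks of height 10 or more, 53.9% were overlapped by a TGF-β1 peak of that height. The share was 71.0% (876 of 1234, interval 68.4 to 73.5%) for peaks at 2 or more genes, 66.0% (interval 64.8 to 67.2%) at 1 gene and 50.9% (interval 50.4 to 51.5%) at no gene end. The order was the same within bands of control height, but within each band the intervals at 2 or more genes and at 1 gene overlap. Between 10 and 14 it was 49.5% at 2 or more genes (interval 45.4 to 53.6%), 45.4% at 1 gene (interval 43.6 to 47.2%) and 33.4% at no gene end. At 20 or more it was 97.9% at 2 or more genes (interval 95.8 to 99.2%), 96.6% at 1 gene (interval 95.6 to 97.5%) and 90.2% at no gene end. Applied from the TGF-β1 list, the same rule gave 862 peaks, of which 816 overlapped one of the 876, that is 94.7% of the 862 and 93.2% of the 876.

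Strand was not part of the rule, and the peaks lay mainly at head-to-head starts. The strand of both ends was known for 687 peaks, since the RefSeq promoter table gave it for 15813 of 19974 protein-coding genes and for none on chromosome 8. Of these, 525 lay at head-to-head starts (76.4%, interval 73.1 to 79.5%), 91 at the end of one gene and the start of the next on the same strand (tandem, 13.2%), 43 at a start that both annotated genes share (6.26%) and 18 at ends that face each other (tail-to-tail, 2.62%). A further 10 lay where a gene on the opposite strand sits inside another. A start was also the usual nearest end at shared peaks at 1 gene, at 2889 of 3142 with known strand (91.9%).

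Genes in these arrangements are not equally common, so the peaks were also counted against all 5064 pairs of protein-coding gene ends within 2 kb of each other, of which 18.3% had one of the peaks. Among head-to-head pairs, 532 of 1199 had one (44.4%, interval 41.5 to 47.2%). Among tandem pairs, 102 of 841 did (12.1%, interval 10.0 to 14.5%), and among tail-to-tail pairs 22 of 921 (2.39%, interval up to 3.59%). The intervals of the 3 arrangements do not overlap. A peak of any height stood at 80.7% of head-to-head pairs in the TGF-β1 list and at 82.8% in the control list, and at 21.3% of tail-to-tail pairs in the TGF-β1 list and 24.1% in the control list. Head-to-head pairs thus stood above tail-to-tail pairs without the height minimum too.

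Spacing changed the shares little up to 1 kb. Head-to-head pairs had a peak at 48.2% with starts up to 250 bp apart, 45.9% from there to 500 bp, 43.6% from there to 1000 bp and 17.5% beyond, up to 2 kb. In the same order of spacing the shares were 18.8, 20.4, 18.2 and 3.70% for tandem pairs, and 3.82, 3.12, 2.04 and 0.707% for tail-to-tail pairs. The fall beyond 1 kb is partly built in, because fewer midpoints can then lie within 1 kb of both ends.

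**Figure D2:**
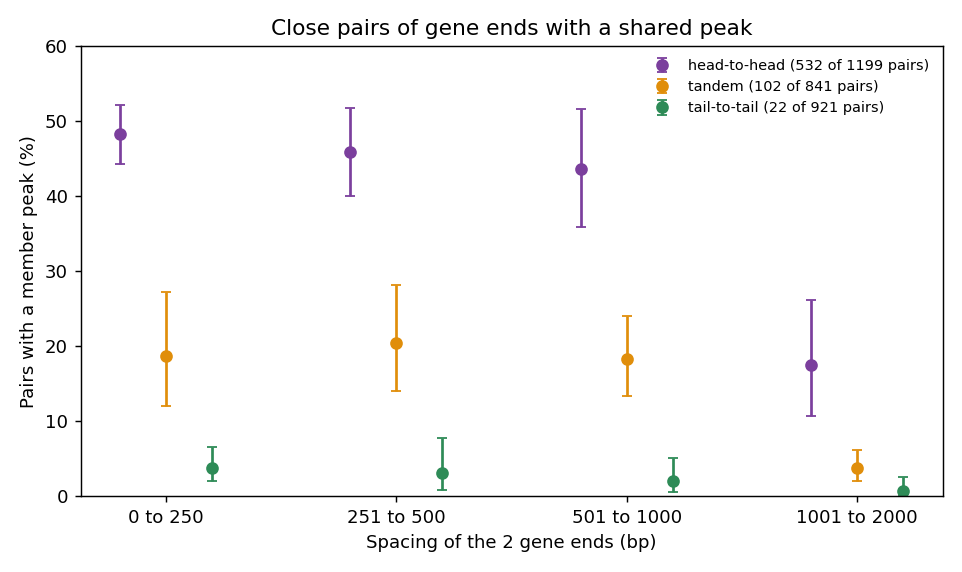
Share of close pairs of gene ends with one of the peaks (vertical, percent, with exact binomial 95% intervals) by spacing of the ends (horizontal, bp) for head-to-head, tandem and tail-to-tail pairs. Head-to-head pairs lie highest at every spacing, 48.2% at up to 250 bp against 3.82% for tail-to-tail pairs.

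Among the head-to-head peaks, 399 had a gap between the starts and 126 lay at starts that overlap. The median gap was 179 bp (quartiles 107 and 295 bp) and 273 gaps were at most 250 bp (68.4%). A single peak usually spanned both starts: it did so at 315 of 399 gaps in the TGF-β1 list (78.9%) and at 341 in the control list (85.5%). It reached neither start at 47 in the TGF-β1 list (11.8%) and 28 in the control list (7.02%). The control list supplied the midpoints for the rule, so its closer placement is in part set by the choice of peaks.

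The midpoint itself lay outside the gap at most pairs. The gaps were short (median 179 bp) beside the 1 kb that the rule allowed. No expected share was worked out, so the shares do not show avoidance of the gap. It lay between the starts at 104 of 399 gaps in the TGF-β1 list (26.1%) and 106 in the control list (26.6%, interval 22.3 to 31.2%), and the median distance to the centre of the gap was 264 bp in the TGF-β1 list and 220 bp in the control list. Of the 399 control midpoints, 198 were nearer to the plus-strand gene (49.6%, interval 44.6 to 54.6%). The lists held no summits, and with peaks over 1 kb wide the midpoint is a coarse mark of where the protein sat. At 101 peaks that lay at a start and an end, the control midpoint was nearer the start in 73 (72.3%, interval 62.5 to 80.7%).

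**Figure D3:**
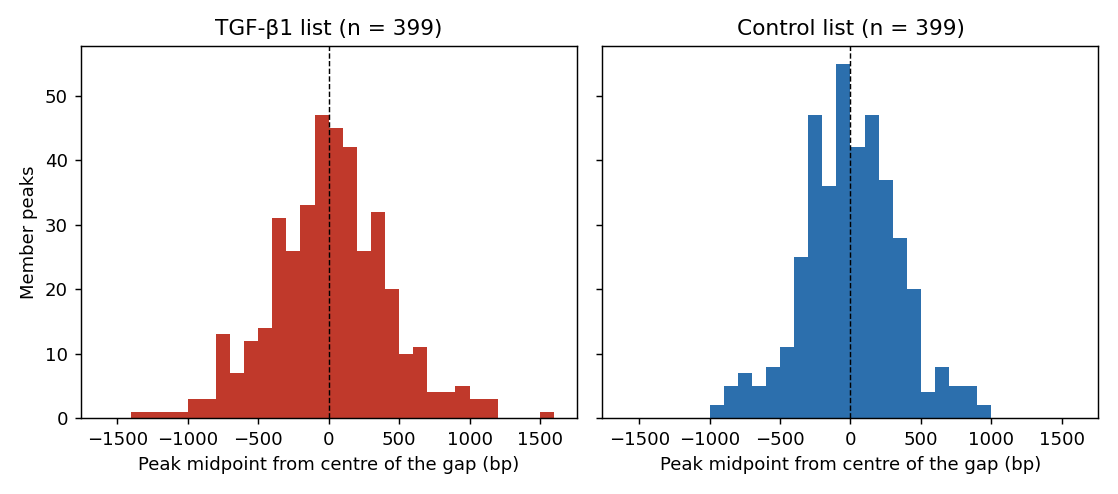
Number of peaks (vertical) by distance of the peak midpoint from the centre of the gap (horizontal, bp, positive toward the higher coordinate) at 399 head-to-head pairs with a gap, for the TGF-β1 list on the left and the control list on the right. Both distributions centre near the middle of the gap, with median absolute distances of 264 bp in the TGF-β1 list and 220 bp in the control list.

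Outside the head-to-head class, the pairs named next were picked after their values were seen, as the highest of their kind in the TGF-β1 list. The tandem peak highest in that list lay at ACVR2B, an activin receptor, and XYLB, a xylulose kinase, with heights of 56 in the TGF-β1 list and 62 in the control list, where the tandem peaks reached 77. The tail-to-tail peak highest in both lists lay between ATP1B1, the beta subunit of the sodium pump, and NME7, with 25 (TGF-β1) and 29 (control). Of the peaks at 3 genes, that at PPP1R13L, POLR1G and ERCC1, where ERCC1 is an endonuclease subunit of excision repair, had 83 in the TGF-β1 list and 60 in the control list, where the peaks at 3 genes reached 82. No peak lay at 4 or more genes. Read-through genes, which join neighbouring genes into one annotation, were involved in 31 of the 876.

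The midpoint was within 1 kb of a long noncoding RNA end at 61 of the 876 peaks (6.96%, interval 5.37 to 8.86%), against 861 of 3771 peaks at 1 protein-coding gene (22.8%, interval 21.5 to 24.2%) and 6.36% of shared peaks at no protein-coding gene end (interval 5.98 to 6.76%). It was within 1 kb of a miRNA gene end at 11 of the 876 (1.26%, interval 0.628 to 2.24%) and at 36 of the 3771 (0.955%, interval 0.669 to 1.32%), and these intervals overlap.

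Pairs known from textbooks as bidirectional or closely spaced had a peak at 23 of 50 listed genes (46.0%, interval 31.8 to 60.7%), against 8.61% of all protein-coding genes and 23.7% of genes with another gene end within 2 kb. The list was compiled for closeness, so of these the second background is the nearer one. That background also takes in tandem and tail-to-tail neighbours, which had a peak less often, here and for the lists below. Head-to-head pairs had a peak at 44.4%, counted over pairs rather than genes, which is close to the 46.0%. Genes that share a peak are counted separately, so this interval and those of the gene lists below are too narrow. MRPL18, of the mitochondrial ribosome, and TCP1, of the CCT chaperonin, had heights of 51 in the TGF-β1 list and 57 in the control list. TK1, thymidine kinase, and AFMID had 40 (TGF-β1) and 54 (control). MCM4 and PRKDC, the catalytic subunit of DNA-dependent protein kinase, had 23 (TGF-β1) and 47 (control). HADHA and HADHB, which encode the subunits of the mitochondrial trifunctional protein, had 18 (TGF-β1) and 12 (control). SURF1 and SURF2 also had 18 (TGF-β1) and 12 (control).

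The remaining known pairs had heights between 10 and 26. BOP1 and HSF1, the heat shock factor, had a TGF-β1 peak of 17 that overlapped control peaks of 26 and 11. ATM, the double-strand break kinase, and NPAT, a coactivator of histone genes, had 13 in the TGF-β1 list and 17 in the control list. SERPINI1 and PDCD10 had 11 (TGF-β1) and 18 (control). SARS2 and MRPS12, both of mitochondrial translation, had 10 (TGF-β1) and 12 (control). The mitochondrial chaperonins HSPD1 and HSPE1 had 10 (TGF-β1) and 13 (control). PSENEN, a gamma-secretase subunit, had its peak with its tandem neighbour LIN37, at 18 (TGF-β1) and 20 (control).

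Of 31 genes of mitochondrial protein import, 11 had one of the peaks (35.5%), and of 77 genes of the mitochondrial ribosome, 20 did (26.0%). The genes named from these and the next lists are those highest in the TGF-β1 list, so which list holds the higher value among them is in part set by that choice. Among genes with a close neighbour these shares were 52.4 and 38.5%, against 23.7% for all such genes. TIMM9, an intermembrane space chaperone, had 61 in the TGF-β1 list and 58 in the control list. TIMM13 had 29 (TGF-β1) and 40 (control). TIMM29 had 28 (TGF-β1) and 37 (control). TOMM6 had 23 (TGF-β1) and 12 (control). MRPL51 had 47 (TGF-β1) and 41 (control). MRPL43 had 43 (TGF-β1) and 49 (control), and MRPL36 shared its peak of 40 (TGF-β1) and 32 (control) with NDUFS6, a subunit of respiratory complex I.

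Of 115 genes of oxidative phosphorylation, 22 had a peak (19.1%, and 33.8% of those with a close neighbour). COX4I1, a subunit of cytochrome c oxidase, had 32 in the TGF-β1 list and 42 in the control list. NDUFA2 had 28 (TGF-β1) and 24 (control). NDUFAF7, an assembly factor of complex I, had 26 (TGF-β1) and 18 (control). The intervals of the lists are drawn in the plot of gene lists.

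Genes of the cell cycle and of DNA upkeep were also among them. Of 58 cell cycle genes, 14 had a peak (24.1%), and 28 of the 58 have a close neighbour. CDC25C, a phosphatase that activates CDK1, had 88 in the TGF-β1 list and 93 in the control list. ANAPC2, a subunit of the anaphase-promoting complex, had 23 (TGF-β1) and 25 (control). ANAPC13, of the same complex, had 22 (TGF-β1) and 21 (control). NUF2, of the kinetochore, had 22 (TGF-β1) and 19 (control). Of 94 genes of DNA replication and repair, 17 had a peak (18.1%, and 29.3% of those with a close neighbour), among them MCM2 with 74 (TGF-β1) and 97 (control) and DDB1, a damage-recognition and ubiquitin ligase subunit, with 37 (TGF-β1) and 35 (control).

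Histone genes, which stand in clusters of near-identical copies, had a peak at 26 of 91 (28.6%, and 43.3% of those with a close neighbour). H2AC8 and H2BC8 had 41 in the TGF-β1 list and 26 in the control list. H2AC14 and H2BC14 had 25 (TGF-β1) and 22 (control). How reads were assigned among such copies is not given in the sources used here, so these heights are uncertain.

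Chaperones had a peak at 18 of 80 genes (22.5%), with HSP90AA1, the inducible HSP90, at 78 in the TGF-β1 list and 93 in the control list, and DNAJC30 at 25 (TGF-β1) and 37 (control). Of 38 aminoacyl-tRNA synthetase genes, 9 had a peak (23.7%, and 42.9% of those with a close neighbour). Among them were WARS1 with 17 (TGF-β1) and 14 (control) and YARS1 with 15 (TGF-β1) and 15 (control). Splicing factors had one at 18 of 94 (19.1%, and 40.0% of those with a close neighbour). SF3B6 had 41 (TGF-β1) and 44 (control), and LSM3 had 23 (TGF-β1) and 21 (control). SNRNP25 had 22 (TGF-β1) and 22 (control), and U2AF2 had 22 (TGF-β1) and 19 (control). Of 73 genes of Mediator, RNA polymerase II and general transcription factors such as TFIID, 12 had one (16.4%, and 32.4% of those with a close neighbour). None of the 12 was a Mediator gene. TBP, the TATA-binding protein, shared its peak of 29 (TGF-β1) and 47 (control) with PSMB1 of the proteasome, and TAF9 had 17 (TGF-β1) and 20 (control). TAF2 had 16 (TGF-β1) and 23 (control). POLR2I had 15 (TGF-β1) and 18 (control).

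FOXK1 has been linked with autophagy and the lysosome. Of 37 autophagy genes, 9 had a peak (24.3%, interval 11.8 to 41.2%, and 47.4% of those with a close neighbour). OPTN, a receptor of selective autophagy, had 27 in the TGF-β1 list and 12 in the control list. ATG9A, a lipid scramblase of the growing membrane, had 24 (TGF-β1) and 17 (control). NBR1, a cargo receptor, had 22 (TGF-β1) and 24 (control). MAP1LC3B, an LC3 protein, had 21 (TGF-β1) and 17 (control). Of 56 genes of the V-ATPase and lysosome, 8 had a peak (14.3%, interval 6.38 to 26.2%, and 27.6% of those with a close neighbour, near the 23.7% of all such genes). ATP6V1D, a V-ATPase subunit, had 53 (TGF-β1) and 41 (control). CTSA, a lysosomal carboxypeptidase, had 23 (TGF-β1) and 27 (control). LAMTOR2, of the Ragulator complex, had 22 (TGF-β1) and 17 (control). ATP6V1A had 20 (TGF-β1) and 20 (control).

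Among genes with a close neighbour, some lists above besides the lysosome had intervals that take in the 23.7% of all such genes. These were DNA replication and repair (18.1 to 42.7%), oxidative phosphorylation (22.6 to 46.6%) and aminoacyl-tRNA synthetases (21.8 to 66.0%). The list of Mediator, RNA polymerase II and general transcription factors did so too (18.0 to 49.8%). Several further lists had shares near or under the 8.61% of all protein-coding genes. Of 86 cytosolic ribosomal protein genes, 10 had a peak (11.6%), led by RPS29 at 36 in the TGF-β1 list and 31 in the control list, RPS18 at 20 (TGF-β1) and 28 (control), RPL4 at 20 (TGF-β1) and 24 (control) and RPL9 at 15 (TGF-β1) and 15 (control). Proteasome genes had one at 4 of 49 (8.16%), with PSMD9 at 21 (TGF-β1) and 27 (control). ZNF genes had one at 29 of 509 (5.70%), with ZNF250 at 77 (TGF-β1) and 90 (control), ZNF646 and ZNF668 at 28 (TGF-β1) and 22 (control) and ZNF292 at 25 (TGF-β1) and 23 (control). None of 24 glycolysis genes had one, which allows a share of up to 14.2%, and 14 of them have another gene end within 2 kb, where 0 allows up to 23.2%.

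Of 30 TGF-β signalling genes, 3 had a peak (10.0%, interval 2.11 to 26.5%, near the 8.61% of all genes). Only 5 of the 30 have a close neighbour, and those 5 include all 3 (interval 14.7 to 94.7%). The 3 were JUNB, TGFBR2, the type II receptor, at 11 in the TGF-β1 list and 20 in the control list, and TGIF2, a SMAD corepressor, at 11 (TGF-β1) and 13 (control). The other end at TGFBR2 belonged to a predicted gene and that at TGIF2 to its own read-through gene. Of 26 matrix and fibrosis genes, LOXL2, a lysyl oxidase that crosslinks collagen, was the 1 with a peak, at 22 (TGF-β1) and 26 (control). Of 31 forkhead genes and FOXK partners, MBD5, known as a component of a FOXK-bound deubiquitinase complex, had 23 (TGF-β1) and 25 (control). FOXM1, a forkhead factor of mitosis, had 13 (TGF-β1) and 15 (control). ANKRD37 was the 1 of 18 hypoxia genes.

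**Figure D4:**
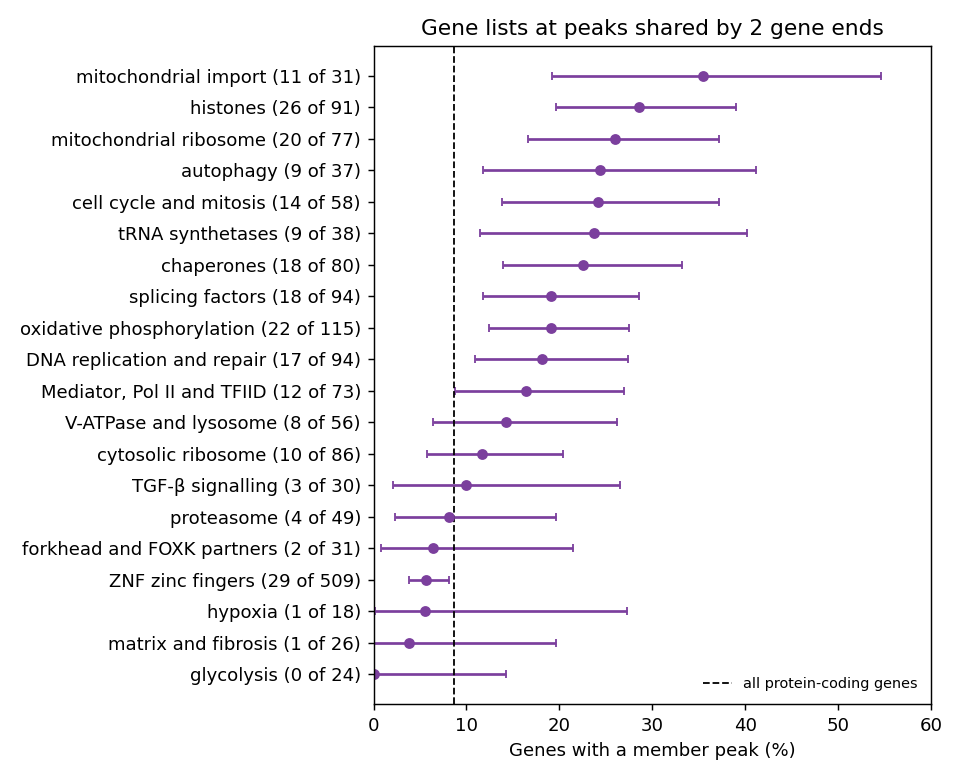
Share of the genes of each of 20 lists, without the list of known close pairs, that had one of the peaks (horizontal, percent, with exact binomial 95% intervals), with the number of genes beside each list name and the 8.61% of all protein-coding genes as a dashed line. Mitochondrial import stands at the top with 35.5% and glycolysis at the bottom with 0 of 24, and the line does not take account of how many genes of a list have a close neighbour. Genes that share a peak are counted separately, so the intervals are too narrow.

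Promoter letters were not part of the rule either. Windows of 300 bases, 250 before and 50 after the annotated start, were read for 896 of the 1014 genes at head-to-head peaks. The forkhead core TGTTTAC, on either strand, was in 29 of them (3.24%, interval 2.18 to 4.62%). It was in 1.16% of 1119 windows of close head-to-head genes without one of the peaks (interval 0.620 to 1.98%), in 4.87% of 2486 windows at 1-gene peaks (interval 4.05 to 5.79%) and in 2.53% of all 13793 windows.

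The windows of a head-to-head pair often overlap, so a match can count for both genes and the intervals, which treat windows as independent, are too narrow. Where the lower of the heights was 50 or more, 12 of 57 windows held the core (21.1%, interval 11.4 to 33.9%), at 9 distinct places, and between 10 and 14 it was 7 of 456 (1.54%, interval 0.619 to 3.14%). At 1-gene peaks the share was 29.6% at 50 or more and 2.13% between 10 and 14. Counted by peak, the core was in a window at 6 of the 12 head-to-head peaks highest in the TGF-β1 list, in 2 of the next 12 and in 18 of the other 493. Of 24 distinct places, 21 lay inside the TGF-β1 peak and 22 inside the control peak, with a median distance to the midpoint of 300 bp in the TGF-β1 list and 274 bp in the control list. Only windows at starts beside the chosen peaks were searched, so this placement is in part set by the choice of peaks. No share was worked out for other places in the same windows.

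The ETS core CCGGAAG was more frequent. On either strand it was in 29.2% of the 896 windows (interval 26.3 to 32.3%) and in 23.8% of those without a peak (interval 21.3 to 26.4%). These intervals overlap slightly. It was in 20.3% at 1-gene peaks and in 14.6% of all windows. By height, the share was 22.8% where the lower height was 50 or more (interval 12.7 to 35.8%) and 33.3% where it was 10 to 14 (interval 29.0 to 37.9%), and these intervals overlap.

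**Figure D5:**
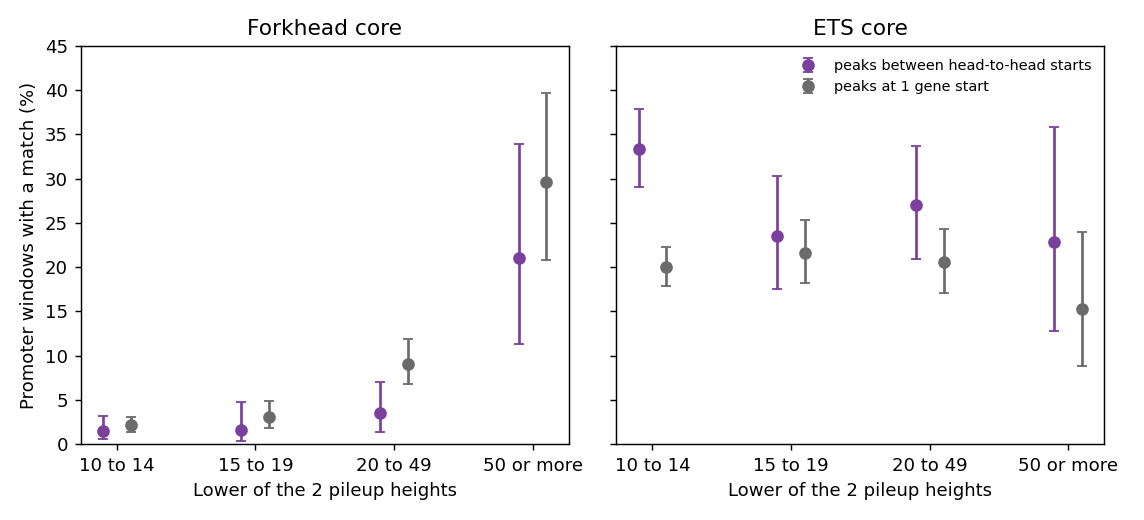
Share of promoter windows with the forkhead core on the left and the ETS core on the right (vertical, percent, with exact binomial 95% intervals) by the lower of the heights in the lists (horizontal), for genes at head-to-head peaks and at 1-gene peaks. The forkhead share at head-to-head peaks is 1.54% in the lowest height class and 21.1% in the highest.

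The E-box CACGTG was in 13.4% of the windows at head-to-head peaks, in 7.95% of those without a peak, in 12.6% at 1-gene peaks and in 8.95% of all windows. At head-to-head peaks it was in 26.3% of windows where the lower height was 50 or more (interval 15.5 to 39.7%) and in 10.1% between 10 and 14 (interval 7.48 to 13.2%), and at 1-gene peaks in 24.5% and 10.6% of windows in the same classes. CCAAT was in 42.6% at head-to-head peaks (interval 39.4 to 45.9%) and 37.4% without a peak (interval 34.6 to 40.4%), and these intervals overlap. It was in 40.3% at 1-gene peaks and 37.1% of all windows. TGANTCA, the AP-1 site, was in 2.79% at head-to-head peaks, 4.56% without a peak, 4.95% at 1-gene peaks and 5.78% of all. Each was searched on both strands. Base composition was similar throughout, with a median of 64.0% G and C at head-to-head peaks, 65.3% without a peak, 64.7% at 1-gene peaks and 62.7% in all windows. The CpG ratio, observed over expected, had a median of 0.874 at head-to-head peaks, 0.851 without a peak, 0.863 at 1-gene peaks and 0.767 in all windows.

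The share of head-to-head pairs with a peak, 44.4% over all chromosomes with known strand, varied among chromosomes. Those named next are examples picked after their values were seen. On chromosome 20 it was 21 of 28 (interval 55.1 to 89.3%), on chromosome 12 33 of 56 (58.9%) and on chromosome 1 68 of 122 (55.7%). On chromosome 19 it was 26 of 88 (29.5%, interval 20.3 to 40.2%), on the X chromosome 6 of 37 (16.2%, interval 6.19 to 32.0%) and on chromosome 22 3 of 22 (13.6%, interval 2.91 to 34.9%).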

How the data were processed

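FOXK1 was mapped in 1 library per condition, each set against 1 input. The authors deposited a peak list per condition with chromosome, start, end, name and a signal, here called the pileup height (whole numbers, lowest 3, median 5 in each list). The lists held 439642 TGF-β1 and 382094 control peaks, and each library had its own list. MACS2 2.1.1.20160309, bcl2fastq 2.17 and hg38 are named per the submitters' processing notes. The aligner, filters and reads per library are not given in the sources used here, so depth is unknown and peak number and height move with it.

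Starts were read as counting from 0. Gene ends came from the RefSeq table of GRCh38.p14, and strand and sequence from RefSeq promoter windows. The analysis used Python 3.11.15, numpy 2.4.6, pandas 2.3.3, scipy 1.17.1 and matplotlib 3.10.9, and the overlap and counting steps were tested on simulated data. The peaks, 21 gene lists and 15 motifs were chosen with earlier results of these data known. Named genes are those of the 12 highest peaks in each list, up to 4 genes per gene list, the known close pairs and 3 peaks at the height minimum. No difference between conditions was tested. Alternatives varied height, overlap, window, starting list, read-through genes and start counting.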

Additional observations from a re-analysis of the deposited data

How the results depend on the processing

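With no replicates, no library could be left out. No paired analysis was possible because each condition had 1 FOXK1 library and no replicate numbers. The 7 summary values (876 peaks, 4.41% of shared peaks, 82.7% at starts of both genes, 26.6% of control midpoints in the gap, a control width of 1124.5 bp, 14.2% of the genes in a list, ETS core in 29.2%) were recomputed under 10 settings and kept their values, within their intervals or 1.5 times for the count, with a reciprocal overlap of 0.5 of each peak, without read-through genes and with starts counted from 1. A minimum height of 15 gave 394 peaks, 4.78%, 1222.5 bp and ETS 25%. A minimum of 20 gave 207 peaks, 4.94%, 86.0% at starts, 19.1% in the gap, 1325 bp, 17.8% in a list and ETS 26.1%. TGF-β1 peaks of any height gave 3.86% and 1056 bp. A window of 500 bp gave 533 peaks, 2.68%, 87.4%, 31.5% in the gap and ETS 33.4%, and one of 250 bp gave 215, 1.08%, 89.9%, 42.7%, 943 bp and ETS 41.4%. Counting any base within 1 kb gave 5.51% and 78.0%, and starting from the TGF-β1 list gave 1041 bp. The causes were not tested. Of 25 named pairs, 17 were still present at a height of 20, 18 with the reciprocal overlap, 10 with 500 bp and 2 with 250 bp. Shares of single gene lists left their 95% intervals in 11 of 21 lists at a minimum height of 15 and in 15 at 20. They did so in 4 with the reciprocal overlap, 12 with 500 bp and 19 with 250 bp. With the reciprocal overlap the known pairs had 26%, the mitochondrial ribosome 15.6%, the cell cycle 13.8% and ZNF genes 2.95%, and with 500 bp the histones had 10.99%. The number of peaks fell too, to 617 with the reciprocal overlap. The shares of all genes (8.61 and 23.7%) belong to the main setting and were not recomputed, so these list shares have no matching background. Strand is missing for 189 of the 876 peaks, unknown depth limits any reading of height between lists, and a width near 1 kb limits positions.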
